A study of Mus musculus with 15 samples.

Results

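The angiopoietin-Tie and apelin tip cell genes are 10 mouse genes chosen by name: the angiopoietins Angpt1 and Angpt2, their receptors Tek (TIE2) and Tie1, the peptide apelin (Apln) and its receptor Aplnr, and 4 genes used as markers of sprouting or permeable vessels, Esm1, Plvap, Pdgfb and Kcne3. They are 10 of the 55536 genes of the GENCODE M21 annotation, of which 24717 had a value in some library. RNA was sequenced from 15 samples of C57BL/6 mice perfused with PBS, 3 in each of 5 groups. These were healthy brain, GL261 brain tumor left untreated, and GL261 tumor of mice treated with B20.4.1.1, an antibody that blocks VEGF-A, where a dose was 50 µg, 100 µg or 200 µg. The first dose came on day 10 from implantation and further ones every 3 days. GL261 is a mouse glioma cell line grafted into mice of its own strain, so tumor cells and host vessels are both mouse and their RNA cannot be told apart by species. Groups follow the sample titles; the agent tag of replicate 3 differed from the title in each of the 4 tumor groups, naming the next higher dose, or no agent at 200 µg. Nothing in the labels states that samples of a group came from separate animals, and the p-values then reflect only sample-to-sample spread, which may be technical.

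Angiopoietin-1, made mainly by pericytes and other mural cells, activates TIE2 on endothelial cells and keeps vessels quiescent. Angiopoietin-2, stored and released by activated endothelial cells, mostly opposes it, and TIE1 is a TIE2 partner with no well established ligand of its own. Tip cells are the leading endothelial cells of a new sprout. They respond to VEGF-A and make Angpt2, Esm1, Apln, Pdgfb and Kcne3, while the apelin receptor is found more on the following stalk and venous cells. Plvap builds the diaphragms of leaky capillaries and is low in vessels with a blood-brain barrier.

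Levels are given as FPKM, fragments per kilobase of transcript per M mapped fragments. Here, FPKM of all transcripts assembled on a gene were added, each weighted by how much of the exonic length it spanned. The weighting lowers genes whose exons were covered only in part, so levels of different genes can be compared only roughly. Because an assembly can fail, a value of 0 is given as listed at 0. Depth, estimated from the intervals deposited with each FPKM, was 19.5 to 20.7 M fragments in untreated tumor, 20.1 to 23.5 M at 50 µg, 24.3 to 25.8 M at 100 µg, 25.7 to 35.6 M at 200 µg and 17.1 to 59.0 M in healthy brain. Tests used limma on log2(FPKM + 1), with Benjamini-Hochberg adjustment over all genes with a mean of at least 1 FPKM, and a call is an adjusted p under 0.05. Changes are on that scale, which understates those of low genes.

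Of the neuron markers, all 6 were called lower in untreated tumor than in brain (median log2 change -5.68). The 12 endothelial markers, such as Pecam1, Cdh5 and Cldn5, had a mean log2 level between 2.10 and 2.90 in every brain and tumor library but 1, and none was at 0. The exception was 200 µg replicate 3, at 1.67, and untreated replicate 1 was the highest, at 2.90. Results at 200 µg include both libraries, and changes without them are given for each member tested. In bulk tissue, fewer cells of a type and less RNA per cell cannot be told apart.

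Sequence just before the start of transcription is shown for Esm1 and Apln, whose levels were correlated across tumors (r = 0.86 over 12 libraries, 0.58 over 10), and for Tek, which was lower in tumor than in brain. Windows were found for 5 of the 10 genes, these 3, Tie1 and Kcne3. They are from RefSeq on build GRCm38.p6 (mm10) and hold the 250 bases before the start, 5′ to 3′ on the strand of the gene. Esm1 is at chr13:113209409-113209658, plus strand, Apln at chrX:48034854-48035103, minus strand, and Tek at chr4:94739039-94739288, plus strand. Capitals mark the core of the hypoxia response element, ACGTG or GCGTG, searched on both strands.
Esm1: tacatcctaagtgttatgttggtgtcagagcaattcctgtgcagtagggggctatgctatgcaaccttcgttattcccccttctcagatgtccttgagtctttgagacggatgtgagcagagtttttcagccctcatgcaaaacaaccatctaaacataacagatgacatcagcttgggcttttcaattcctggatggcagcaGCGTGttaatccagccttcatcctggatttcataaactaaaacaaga
Apln: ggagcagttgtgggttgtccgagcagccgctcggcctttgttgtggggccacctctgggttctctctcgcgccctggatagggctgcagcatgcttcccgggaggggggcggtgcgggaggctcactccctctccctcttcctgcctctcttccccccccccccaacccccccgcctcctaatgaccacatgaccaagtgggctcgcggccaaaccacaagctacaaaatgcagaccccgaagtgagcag
Tek: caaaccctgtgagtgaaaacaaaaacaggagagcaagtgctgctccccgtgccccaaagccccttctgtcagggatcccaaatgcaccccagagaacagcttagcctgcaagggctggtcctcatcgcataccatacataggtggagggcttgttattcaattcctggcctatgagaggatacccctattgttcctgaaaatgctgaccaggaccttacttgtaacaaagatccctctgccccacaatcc
The Esm1 window held 1 such core, 47 bases before the start, and the other windows shown held none. Of 32851 RefSeq windows of this length, 38.6% held this core, so many promoters share it. The FOXO core GTAAACA, in 3.17% of windows, and the ETS core CCGGAA, in 12.03%, were in none of these 3.

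Angpt2 and Angpt1 differed in opposite directions between healthy brain and tumor. Angpt2 (chr8:18690263-18741562, minus strand) was listed at 0 in brain replicate 1, and brain replicates 2 and 3 held 1.85 and 0.21 FPKM. Untreated tumors held 10.61, 7.17 and 4.47 FPKM, all above the brain. Angpt2 was called higher in untreated tumor, by 2.41 on the log2 scale (SE 0.47, limma adjusted p = 0.00465); with a plain sum of FPKM it was not called (limma adjusted p = 0.280). The 1.85 FPKM in brain replicate 2 came from 1 transcript covering 6.96% of the exonic length, whereas every tumor library covered 64.2% to 71.7% of it. Angpt1 (chr15:42424723-42676977, minus strand) showed the reverse. It held 0.43, 1.13 and 0.94 FPKM in brain and was listed at 0 in all 3 untreated tumors. The brain libraries covered 12.1%, 16.7% and 100.0% of its coding sequence, so replicates 1 and 2 held mostly pieces outside it. Its mean was under 1 FPKM, so it was not tested with the others. It shares transcripts with the overlapping gene Gm17473, which makes its value uncertain.

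Both ligands were then followed over dose. Angpt2 held 4.44, 3.95 and 10.38 FPKM at 50 µg and 3.18, 5.60 and 6.03 at 100 µg. At 200 µg it held 7.20, 3.66 and 1.85 FPKM. The tumor groups overlapped at every dose, and the change at 200 µg was -0.75 (SE 0.45, limma adjusted p = 0.331). Angpt1 was above 0 in 1 library at 50 µg (0.30 FPKM) and in replicates 1 and 3 at 100 µg (0.14 and 0.82). All 3 libraries of the highest dose held some (0.47, 0.54 and 0.16 FPKM). They covered 99.9%, 0% and 0% of its coding sequence, so replicates 2 and 3 held only pieces outside it. The same was true of 50 µg replicate 3 (0%), and 100 µg replicates 1 and 3 covered 10.1% and 99.8%. With no filter on low values, Angpt1 changed by -0.85 in untreated tumor against brain (limma adjusted p = 0.00928) and by 0.46 at 200 µg (limma adjusted p = 0.269).

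**Figure D1:**
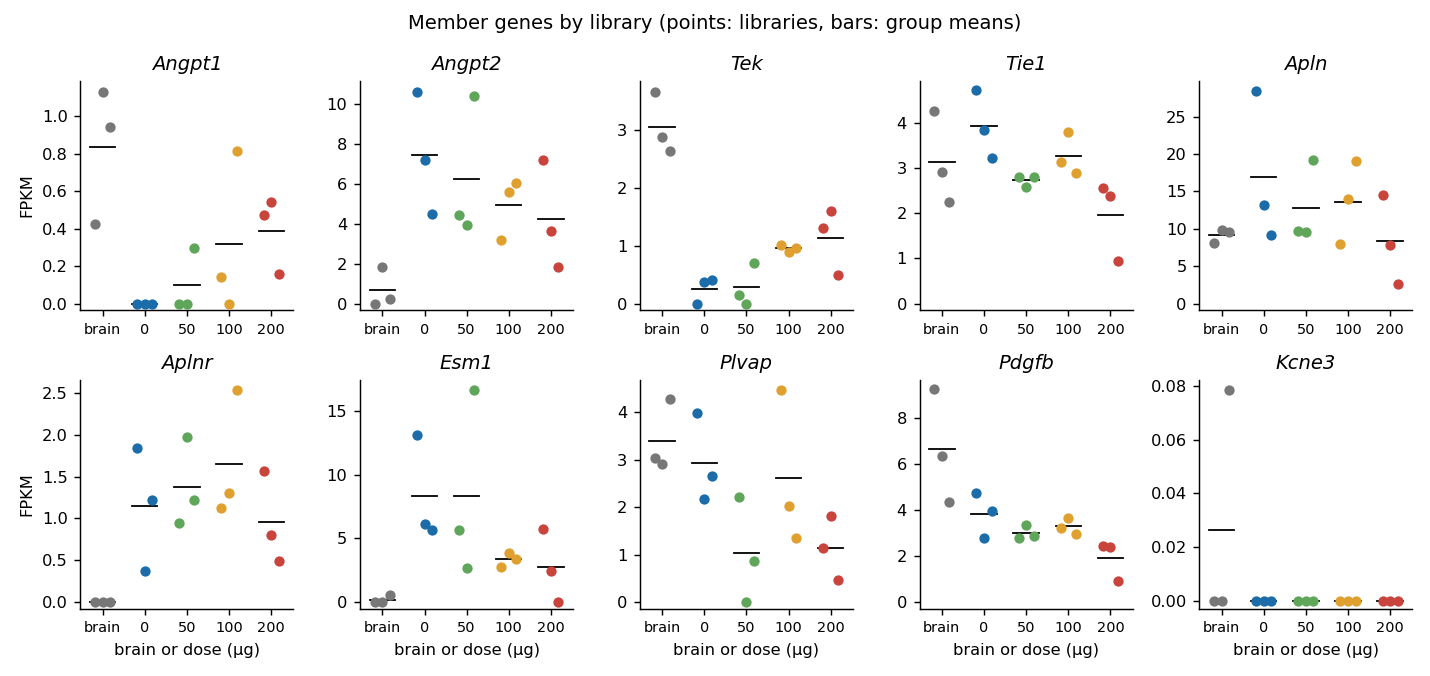
Level in FPKM of each of the 10 genes (vertical axes, separate scales) in each library (points), for healthy brain and for tumors at 0, 50, 100 and 200 µg of antibody per dose (horizontal axes), with group means as bars. Angpt2 and Esm1 are high in tumor, Tek is high in brain, Angpt1 and Tek are lowest at 0 and 50 µg, and Kcne3 is listed at 0 in every tumor.

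Because the angiopoietins compete for 1 receptor, their balance was also read as log2((Angpt2 + 1)/(Angpt1 + 1)). In untreated tumor, where Angpt1 was listed at 0, this ratio is the level of Angpt2 alone. It was -0.51, 0.42 and -0.68 in brain and 3.54, 3.03 and 2.45 in untreated tumor. It was 2.44, 2.31 and 3.13 at 50 µg, 1.87, 2.72 and 1.95 at 100 µg, then 2.48, 1.60 and 1.30 at 200 µg. Every untreated tumor was above every brain library, with a difference of 3.26, and the 2-sided exact permutation p was 0.1, the smallest that 3 against 3 allows (adjusted over 5 tests, 0.25). The slope over the 12 tumor libraries was -0.61 per 100 µg (exact permutation p = 0.00884 over 369600 arrangements, adjusted 0.0442). This call was not stable: 10 of the 12 exclusions of 1 tumor library ended it, with adjusted p up to 0.189 (without 200 µg replicate 3), as did permuting within replicate numbers (adjusted exact p = 0.0937). Without untreated replicate 1 and 200 µg replicate 3 the slope was -0.39 (adjusted exact p = 0.25). Taken singly with no filter, the slopes were -0.37 for Angpt2 and 0.24 for Angpt1 (limma adjusted p of 0.302 and 0.168). The Angpt1 part rests on low values that were partly assembled.

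**Figure D2:**
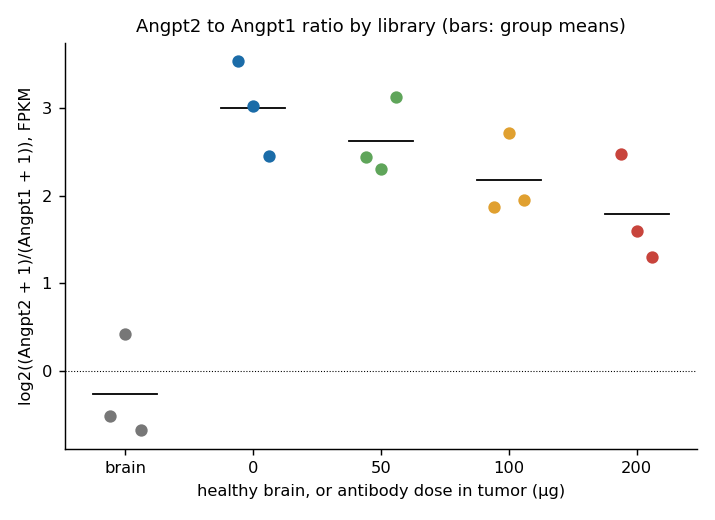
Angpt2 to Angpt1 ratio as log2((Angpt2 + 1)/(Angpt1 + 1)) from FPKM (vertical axis) by library (points) and group mean (bars), in healthy brain and by antibody dose in tumor (horizontal axis). The brain libraries lie between -0.68 and 0.42, the untreated tumors between 2.45 and 3.54, and the 200 µg tumors between 1.30 and 2.48. Angpt1 is listed at 0 in all untreated tumors, so their points show Angpt2 alone.

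Tek and Tie1, receptors of 1 family, parted in the tumor. Tek (chr4:94739289-94874976, plus strand) held 3.67, 2.89 and 2.64 FPKM in brain. In untreated tumor it was listed at 0 in replicate 1, with 0.38 and 0.41 in the others, so no tumor library reached the lowest brain library. It was called lower, by 1.70 on the log2 scale (log2 change -1.70, SE 0.20, limma adjusted p = 0.000496), and not called with a plain sum of FPKM (limma adjusted p = 0.0926). Tie1 (chr4:118471191-118490061, minus strand) held 4.26, 2.91 and 2.26 FPKM in brain and 4.74, 3.84 and 3.23 in untreated tumor. The ranges overlapped, and its change of 0.27 (95% interval -0.29 to 0.83) was not called. Every untreated tumor listed Tie1 above Tek, while in brain their levels overlapped.

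Tek was higher at the larger doses. It held 0.15, 0 and 0.70 FPKM at 50 µg, 1.01, 0.90 and 0.97 at 100 µg, then 1.31, 1.61 and 0.50 at 200 µg. All 6 libraries at 100 and 200 µg were above the 3 untreated ones, and all were below the brain. Its tumor mean was under 1 FPKM, so Tek was outside the tests among tumors. With no filter, the slope was 0.42 per 100 µg (SE 0.13, limma adjusted p = 0.0746), where 5.84% of 21312 genes were called. Taken relative to the 12 endothelial genes, again with no filter, it was 0.58 per 100 µg (SE 0.13, limma adjusted p = 0.0265), with 5.42% of genes called. That scale lifts most genes: the median slope of the 14442 genes passing the filter was 0.19 on it, against 0.03 on the FPKM scale. The libraries at 100 and 200 µg were also the deeper ones and had fewer genes assembled in pieces (24.5% to 31.1% against 32.1% to 33.7% in untreated tumor); their part in this result was not tested.

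The assembled exons of Tek were more complete in most libraries at 100 and 200 µg than in the others. The 3 untreated libraries covered 0%, 35.6% and 44.2% of its coding sequence, and those at 50 µg 5.11%, 0% and 0%. At 100 µg coverage was 79.0%, 39.2% and 100.0%, and at 200 µg it was 100.0%, 100.0% and 77.6%. Replicate 2 at 100 µg was thus below untreated replicate 3 in coverage, though not in FPKM. Exons 15 to 23 of 23, which hold the 3′ end of the gene, were absent from all untreated libraries and covered in all of those at 200 µg. Angpt2 differed from this: its exon set was the same in all 12 tumors apart from exon 6, found in 100 µg replicate 2 only, and its last exon was covered in part in every tumor.

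**Figure D3:**
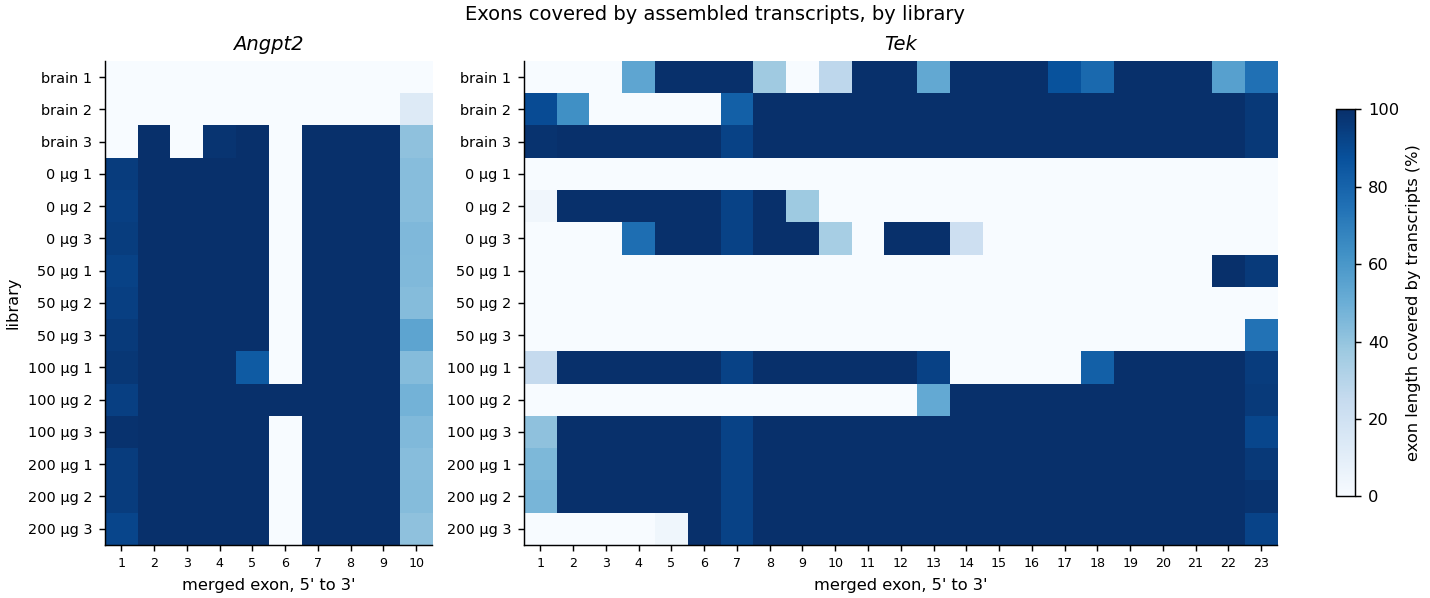
Share of the length of each merged exon covered by assembled transcripts (color, percent), for Angpt2 and Tek, with exons in transcript order (horizontal axis) and libraries in rows (0 µg is untreated tumor). Angpt2 is assembled alike in all tumors, whereas Tek is in fragments or absent at 0 and 50 µg and nearly whole in most libraries at 200 µg.

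With FPKM weighted by coverage, the apelin ligand had the highest mean of the 10 genes in every group. Apln (chrX:48025146-48034853, minus strand) held 8.08, 9.86 and 9.52 FPKM in brain and 28.48, 13.20 and 9.13 in untreated tumor. Only the highest of these, in replicate 1, stood far above the brain. The change of 0.68 (95% interval -0.27 to 1.63) was not called. Apln held 9.76, 9.60 and 19.18 FPKM at 50 µg, 7.99, 13.93 and 19.05 at 100 µg, then 14.53, 7.90 and 2.68 at 200 µg, and the tumor groups overlapped throughout. Its coding sequence was fully covered in all 15 libraries, so these values do not depend on partial assembly. Its change at 200 µg was -1.02 (SE 0.56, limma adjusted p = 0.290) and -0.03 without untreated replicate 1 and 200 µg replicate 3.

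Its receptor was found in tumor only. Aplnr (chr2:85136225-85139923, plus strand), a gene of 1 exon, was listed at 0 in all 3 brain libraries and held 1.84, 0.38 and 1.22 FPKM in untreated tumor. It held 0.95, 1.97 and 1.22 FPKM at 50 µg, 1.13, 1.30 and 2.53 at 100 µg, then 1.56, 0.81 and 0.50 at 200 µg. All 12 tumor libraries were above the brain, and the doses overlapped. With no filter the difference of untreated tumor from brain was 1.04 (SE 0.27, limma adjusted p = 0.0239), where 47.4% of genes were called. At 200 µg it was -0.11 (SE 0.32, limma adjusted p = 0.868).

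Esm1, a secreted proteoglycan (endocan) of tip cells, showed the largest rise of the 7 members tested. Esm1 (chr13:113209659-113218098, plus strand) was listed at 0 in brain replicates 1 and 2 and held 0.58 FPKM in replicate 3. Untreated tumors held 13.13, 6.12 and 5.69 FPKM. It was called higher, by 2.91 on the log2 scale (SE 0.35, limma adjusted p = 0.000569). At 50 µg it held 5.69, 2.69 and 16.61 FPKM, a wider range than in any other group. The highest of these, in replicate 3, came from the tumor library with the most genes assembled in pieces (45.3%). At 100 µg it held 2.80, 3.87 and 3.40 FPKM, and the change from untreated tumor, -1.02, was not called (SE 0.69, limma adjusted p = 0.744). At 200 µg it held 5.77 and 2.43 FPKM and was listed at 0 in replicate 3, the library with the lowest endothelial level. The change at 200 µg was -1.62 (SE 0.69, limma adjusted p = 0.192), and -0.52 without untreated replicate 1 and 200 µg replicate 3. Per 100 µg the slope was -0.85 (SE 0.31, limma adjusted p = 0.102), or -0.69 relative to endothelial genes (SE 0.23, limma adjusted p = 0.0788). The slope relative to endothelial genes was -0.94 (limma adjusted p = 0.0430), and so called, without 200 µg replicate 1, but -0.48 (limma adjusted p = 0.313) without 200 µg replicate 3. On the FPKM scale the same exclusions gave -1.16 and -0.51, neither of them called (limma adjusted p of 0.0771 and 0.307).

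Pdgfb, the tip cell ligand that recruits pericytes, was called lower at 200 µg than in brain, the only dose tested against brain. Pdgfb (chr15:79995874-80014977, minus strand) held 9.25, 6.35 and 4.36 FPKM in brain and 4.77, 2.79 and 3.96 in untreated tumor. These groups overlapped, and the change of -0.63 was not called (limma adjusted p = 0.101). It held 2.80, 3.34 and 2.86 FPKM at 50 µg, 3.24, 3.67 and 2.96 at 100 µg, then 2.45, 2.41 and 0.90 at 200 µg. The 200 µg libraries were all below every other library, but their change from untreated tumor, -0.76 (SE 0.24), had a limma adjusted p of 0.107. Against brain, Pdgfb at 200 µg was called lower (log2 change -1.39, SE 0.34, limma adjusted p = 0.0121). With a plain sum of FPKM this call was lost. Pdgfb is expressed by several brain cell types, neurons among them, and neuron markers were also lower. Their part in the difference from brain was not tested.

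Plvap did not rise in the tumor. Plvap (chr8:71497765-71511752, minus strand) held 3.04, 2.91 and 4.28 FPKM in brain and 3.98, 2.18 and 2.66 in untreated tumor, with a change of -0.17 (95% interval -0.72 to 0.38). It held 2.22, 0 and 0.88 FPKM at 50 µg, 4.47, 2.03 and 1.35 at 100 µg, then 1.14, 1.81 and 0.46 at 200 µg. Only the 200 µg libraries were all below the untreated ones, with a change of -0.91 (SE 0.44, limma adjusted p = 0.243). Some of its transcripts also covered the neighboring gene Gtpbp3, and only 1 brain and 1 tumor library covered its whole coding sequence, so its level is uncertain. Kcne3, a potassium channel subunit of tip cells at chr7:100176502-100184869, plus strand, held 0.08 FPKM in brain replicate 3 and was listed at 0 in the other 14 libraries.

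Counted over the list, 7 of the 10 genes passed the filter against brain, and Angpt2 and Esm1 passed it through the tumor group alone and Tek through the brain group alone, in each case the group where the gene is high. Untreated tumor differed from brain in so many genes that 61.1% of 16089 tested were called, 32.8% higher and 28.4% lower. The members' 3 calls, Angpt2 and Esm1 higher and Tek lower, did not exceed that background share. The same 3 genes were those whose libraries did not overlap between the groups among the 7 tested, against 68.9% of all genes. The same 3 genes were called relative to the 12 endothelial genes, where 50.5% of all genes were: Angpt2 by 2.28 (SE 0.46, limma adjusted p = 0.00194), Esm1 by 2.78 (SE 0.39, limma adjusted p = 0.000195) and Tek by -1.82 (SE 0.35, limma adjusted p = 0.00166). Tie1, Apln and Plvap were not called on either scale, and Pdgfb had a limma adjusted p of 0.0536 on the second.

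**Figure D4:**
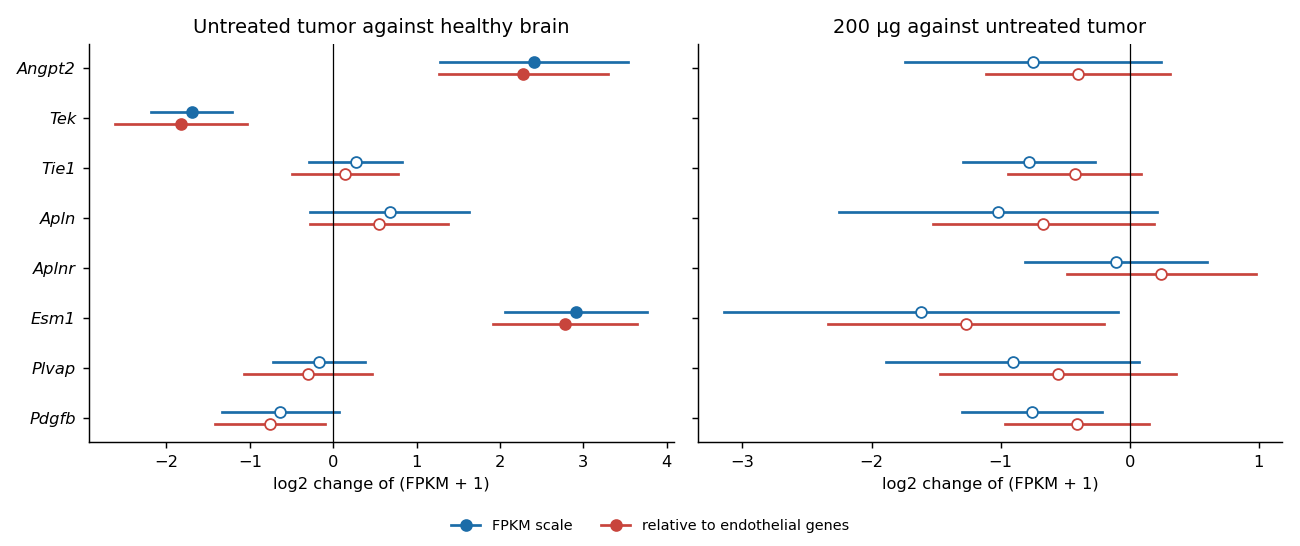
Change in log2(FPKM + 1) with 95% limma intervals (horizontal axes) of the genes that passed the filter (rows), for untreated tumor against healthy brain and for 200 µg against untreated tumor, on the FPKM scale (blue) and relative to 12 endothelial genes (red); filled points were called at an adjusted p under 0.05. Angpt2, Esm1 and Tek are called against brain on both scales, and no gene is called at 200 µg.

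No member was called for an effect of dose. Limma called 0% of 14442 genes at 50 µg against untreated tumor, 0.0831% at 100 µg, 2.99% at 200 µg, 7.89% for the linear trend over dose, and 1.2% for 200 µg against 50 µg. Relative to endothelial genes, limma called 2.38% at 200 µg and 6.86% for the trend, and no member. Of the 7 members tested, those with an unadjusted p under 0.05 numbered 1 at 50 µg (Plvap), 0 at 100 µg, 3 at 200 µg (Tie1, Esm1 and Pdgfb) and 3 for the trend (the same 3 genes), against 4.01%, 9.07%, 23.3% and 26.8% of all genes.

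Among the members tested, the size of the changes at 200 µg leaned to lower values. A negative change was found for all 7 members tested (median -0.78), and for 47.0% of all genes (median 0.03). Tek and Angpt1, which the filter kept out of this count, had positive changes with no filter. These were 0.74 and 0.46, neither of them called (limma adjusted p of 0.142 and 0.269). The 7 members share libraries and several followed the endothelial level, so they are not 7 separate observations. On the endothelial list 10 of 12 changes were below 0 (median -0.41), none of them called. Tie1 held 2.81, 2.58 and 2.80 FPKM at 50 µg and 3.13, 3.80 and 2.89 at 100 µg. Its levels at the highest dose were 2.56, 2.37 and 0.94 FPKM. Its 200 µg libraries were all below the untreated ones, with a change of -0.78 (SE 0.23, limma adjusted p = 0.0862) and of -0.43 relative to endothelial genes (limma adjusted p = 0.298). Such groups, not overlapping and lower at 200 µg, were found for Tie1, Pdgfb and Plvap of the 7 and for 17.3% of all genes. Without untreated replicate 1 and 200 µg replicate 3, the change was -0.39 for Tie1, -0.34 for Pdgfb, -0.48 for Plvap, -0.11 for Angpt2 and 0.30 for Aplnr.

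Against healthy brain, tumors at 200 µg showed 4 calls among the 7 members tested, where 61.8% of 16137 genes were called, 33.9% higher and 27.9% lower. Angpt2 and Esm1 passed the filter here through the 200 µg group alone, the group where each was higher. Their means there were 4.23 and 2.74 FPKM, against 0.69 and 0.19 in brain. Angpt2 was higher (1.66, SE 0.53, limma adjusted p = 0.0344), and Tek was lower by less than in untreated tumor (-0.96, SE 0.25, limma adjusted p = 0.0150). Plvap was lower (-1.08, SE 0.28, limma adjusted p = 0.0146), as was Pdgfb. The 3 brain libraries differed in choroid plexus genes, whose sums were 576, 13.6 and 1292 FPKM, and the part of this tissue in the Plvap result was not tested; without each brain library in turn Plvap was still called (limma adjusted p of 0.0335 to 0.0444). Both comparisons with brain share the brain libraries. The Angpt2 call was lost without brain replicate 1 or 3, or without 200 µg replicate 1 or 2 (limma adjusted p of 0.0804 to 0.103). Esm1 was not called (1.29, limma adjusted p = 0.148) unless 200 µg replicate 3 was left out (2.05, limma adjusted p = 0.00911) or libraries were regrouped by agent tag (2.01, limma adjusted p = 0.00191).

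Within tumors, Apln, Esm1 and Angpt2 had the closest relation to the endothelial level of their library. Over the 12 tumor libraries, Pearson's r with the mean log2 level of the 12 endothelial genes was 0.92 for Apln, 0.87 for Esm1, 0.86 for Angpt2, 0.84 for Tie1, 0.79 for Pdgfb, 0.50 for Plvap and 0.46 for Aplnr. The median over 14442 genes was -0.01. All come from the same libraries, so depth and composition are shared. When the libraries farthest from the median endothelial level were left out, untreated replicate 1 and 200 µg replicate 3, r over the other 10 was 0.68 for Apln, 0.69 for Angpt2 and 0.57 for Esm1. For Tie1 it was 0.15 and for Pdgfb -0.16, so that their relation rests on those libraries.

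**Figure D5:**
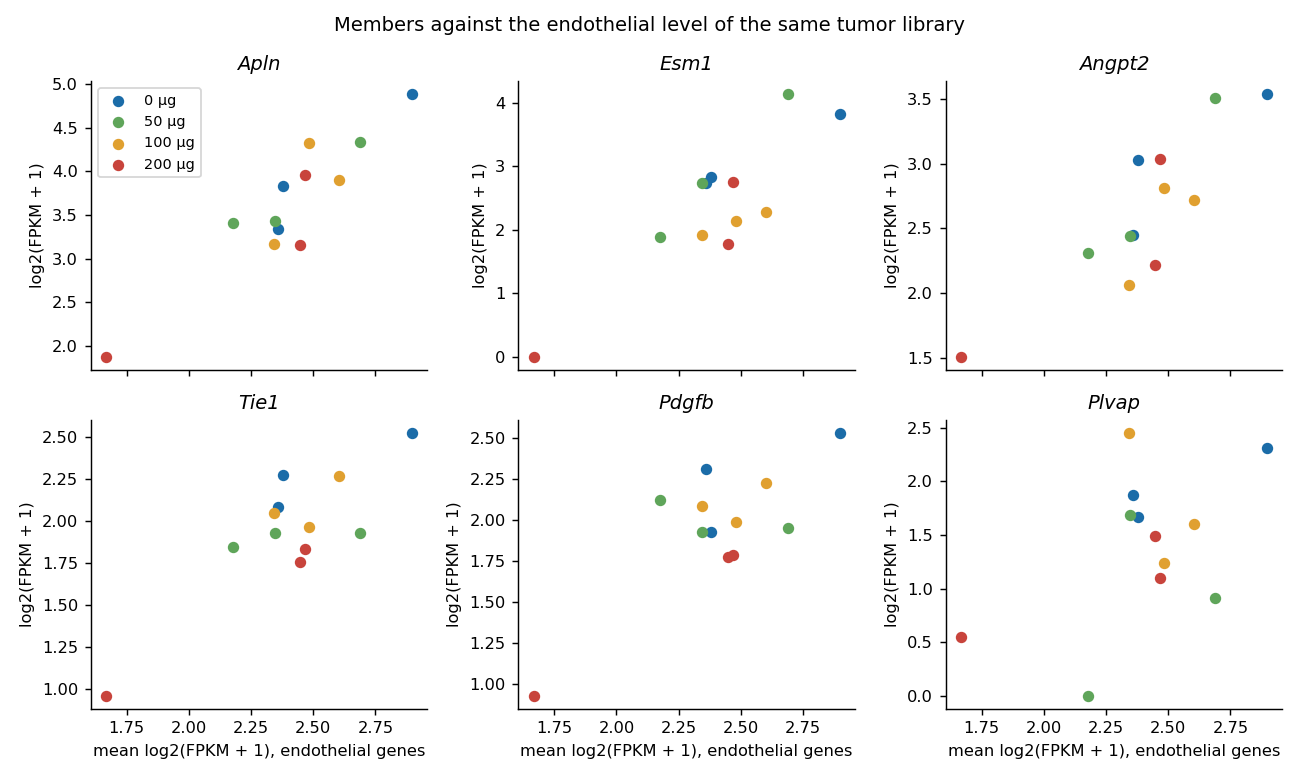
Level of 6 genes as log2(FPKM + 1) (vertical axes) against the mean log2(FPKM + 1) of 12 endothelial genes (horizontal axes) in each of the 12 tumor libraries, colored by antibody dose. Apln, Esm1 and Angpt2 rise with the endothelial level, and 200 µg replicate 3, at 1.67 on the horizontal axis, is the lowest library for all but Plvap.

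The genes most like each member over the 12 tumor libraries were found by Pearson's r among 14442 genes, and r over the 10 libraries above is given second. Angpt2 was most like Emcn (r = 0.93 and 0.83), an endothelial sialomucin on the endothelial list, and Gm49391 was also among its closest genes (r = 0.89 and 0.87). Among members it was closest to Apln (r = 0.94 and 0.89) and Esm1 (r = 0.92 and 0.83). Apln was most like the endothelial genes Cd34 (r = 0.92 and 0.78), Robo4 (r = 0.92 and 0.68) and Emcn (r = 0.91 and 0.74). Esm1 was most like Selenoh (r = 0.91 and 0.86), Igfbp3 (r = 0.90 and 0.72), a secreted binding protein of insulin-like growth factors, and the chemokine Ccl3 (r = 0.90 and 0.68). Tie1 and Pdgfb had the same leading genes, Tomm40, part of the mitochondrial import channel, and Gm20512, followed by Trp53i11 for Tie1 and Glmp for Pdgfb. With Tomm40, r was 0.94 for Tie1 and 0.96 for Pdgfb, and 0.69 and 0.78 over the 10 libraries. Aplnr was most like A630001G21Rik (r = 0.83 and 0.79), Atg3 and Coq4, and Plvap like Adamtsl4 (r = 0.86 and 0.82), Hgs and Spout1.

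Of 18 further genes of the angiopoietin-Tie and apelin pathways, 14 were tested against brain, and 6 were called higher and 4 lower in untreated tumor, where 32.8% of all genes were called higher and 28.4% lower. The median change was 0.16, against 0.12 for all genes. Integrin subunits Itgb1 (3.27, limma adjusted p = 2.77e-05) and Itga5 (2.09, limma adjusted p = 0.000730), which bind angiopoietin-2 as well as fibronectin, rose, as did Nos3 (2.87, limma adjusted p = 0.000165), the endothelial nitric oxide synthase, and Mmp14 (1.65, limma adjusted p = 0.00242), a membrane protease. Nos3 shares transcripts with Atg9b and Abcb8, so its level is uncertain. Ptprb, the phosphatase VE-PTP that restrains TIE2, fell by 0.49 (limma adjusted p = 0.0354). Thbd, thrombomodulin, fell by 1.49, Pik3r1, a regulatory subunit of PI3 kinase, by 1.35, and Ptpn11, the phosphatase SHP2, by 0.55 (limma adjusted p of 0.0289, 0.00404 and 0.0170). Thbd shares transcripts with Sstr4. At 1.19, 0 and 0.67 FPKM in untreated tumor, it passed the filter through the brain group alone. Of 15 alternatives, 11 ended the call of Ptprb, 8 that of Thbd and 7 that of Ptpn11. At 200 µg against brain, 5 of the 14 were called higher, with Itgb1 (3.90), Itga5 (2.45), Mmp14 (1.32) and Nos3 (1.31) leading, and none lower, where 33.9% of all genes were called higher and 27.9% lower.

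Over dose, 2 of the 13 pathway genes tested rose and 1 fell, where 7.89% of all genes were called for the trend. At 200 µg, 2 were called, against 2.99% of all genes. Foxo1, a transcription factor that TIE2 signaling holds in check and that can drive Angpt2, held 2.40, 2.27 and 2.19 FPKM in untreated tumor and 7.71, 7.15 and 6.69 at 200 µg. The groups did not overlap, and it was called higher at 200 µg (1.31, SE 0.16, limma adjusted p = 0.00816) and over dose (0.69 per 100 µg, limma adjusted p = 0.00554). Pik3r1 held 4.16, 4.26 and 3.05 FPKM in untreated tumor and 9.82, 8.52 and 8.55 at 200 µg, and was called at 200 µg (1.05, SE 0.19, limma adjusted p = 0.0233) and over dose (0.57 per 100 µg, limma adjusted p = 0.00941). Its call at 200 µg was lost without any 1 of the untreated libraries or of 200 µg replicates 1 and 2 (limma adjusted p of 0.0614 to 0.104). Both were also called higher at 200 µg than at 50 µg (1.06 and 0.99). Nos3 fell over dose, by 0.81 per 100 µg (limma adjusted p = 0.0172), a call lost without 200 µg replicate 1 or 2 (limma adjusted p of 0.0643 and 0.0528). Foxo1 shares transcripts with Gm20402. With a term for the 4 libraries that had few genes in pieces, namely 100 µg replicate 3 and all of 200 µg, no call remained for Foxo1 (0.98 at 200 µg, limma adjusted p = 0.207), Pik3r1 or Nos3. All 3 libraries at 200 µg had that term, so it and the dose cannot be told apart there. With a plain sum of FPKM, Foxo1 was not called at 200 µg (limma adjusted p = 0.107) and the trend of Pik3r1 was -0.04.

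Of 20 other genes reported for tip cells, 19 were tested against brain, and 11 were called higher and 3 lower, against 32.8% and 28.4% of all genes. The median change was 1.41, against 0.12 for all genes. The largest rises were those of the basement membrane proteoglycan Hspg2 (4.57), the urokinase receptor Plaur (3.91), the adhesion molecule Mcam (3.64), which shares transcripts with Cbl, and Igfbp3 (3.03). Ednrb, an endothelin receptor that astrocytes also express, fell by 2.80, the endothelial transcription factor Sox17 by 1.42 and the netrin receptor Unc5b by 1.36. Hspg2 (0.73 to 1.03 FPKM in brain), Plaur (0 to 0.82), Lama4, Nid1 and Cxcr4 passed the filter through the tumor group alone, where they are high. Ednrb and Sox17, at 0.30 to 0.97 and 0.32 to 0.73 FPKM in untreated tumor, passed it through the brain group alone. The same held for Unc5b at 200 µg (0.42, 0.10 and 0 FPKM). At 200 µg against brain, 10 were called higher, led by Mcam (3.74), Plaur (3.70), Hspg2 (3.26) and Lama4 (3.08), and 4 lower, Ednrb (-2.57), Trp53i11 (-2.39), Unc5b (-2.28) and Sox17 (-1.93). At 200 µg against untreated tumor, 1 of 16 was called, where 2.99% of all genes were: Trp53i11 (-1.66, SE 0.36, limma adjusted p = 0.0409), which shares transcripts with Tspan18. Leaving out any of 10 of the 12 tumor libraries ended that call (limma adjusted p of 0.0532 to 0.115). Over dose Ets1, an endothelial transcription factor, rose by 0.50 per 100 µg, and Trp53i11 and Igfbp3 fell by 0.72 and 0.57 (limma adjusted p of 0.0280, 0.0395 and 0.0407). These 3 calls ended with the term for the 4 libraries (limma adjusted p of 0.316 to 0.764) and without untreated replicate 1 and 200 µg replicate 3 (limma adjusted p of 0.0734 to 0.217).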

How the data were processed

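The authors deposited for each library a table of assembled transcripts with abundance as FPKM, made with STAR and Cufflinks on mm10, per the submitters' processing notes (no versions or annotation named there). The other values in those tables (coverage, interval bounds and isoform fractions), also deposited by the authors, served only to estimate depth. Each library was assembled separately, so an exact 0 can be a failed assembly, and FPKM scales with the rest of the library. Transcripts were matched to GENCODE M21 exons, ignoring strand, and single-exon transcripts under 200 bp were set aside. A gene's value was the sum of FPKM times the share of its exonic length covered.

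Tests used limma 3.58.1 in R 4.3.3 on log2(FPKM + 1) with Benjamini-Hochberg adjustment, for genes averaging 1 FPKM or more in the libraries fitted, trend and robust options off; dose comparisons shared 1 fit over the 12 tumor libraries. Values relative to endothelial genes had the library's mean log2 level of 12 such genes subtracted. The Angpt2 to Angpt1 ratio was tested by exact permutation, 2-sided. The limma step was tested on simulated data, where it recovered 34% of genes changed by 1 and 86% of those changed by 2 on the log2 scale at 200 µg against untreated tumor (14442 genes).

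Groups came from sample titles. The agent tag disagreed with them in 4 tumor libraries, replicate 3 of each tumor group. The members, lists and tests were chosen with earlier results of these data known. Text names all 10 members, every called gene of both pathway lists or, where more than 4 moved in 1 direction, those with the largest change, and the genes most like a member, of which 1 is not reported here. Alternatives were a plain FPKM sum, a pseudocount of 0.1, no filter, median-of-ratios scaling, limma trend and robust options, a replicate block, regrouping by or leaving out the disagreeing tags, a batch term, and leaving out each library. Leaving out untreated replicate 1 and 200 µg replicate 3 together, and trying these settings on the pathway genes, was chosen after seeing the data.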

Additional observations from a re-analysis of the deposited data

How the results depend on the processing

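The main tests called 61.1% of all genes in untreated tumor and 61.8% at 200 µg against healthy brain. The count of members called against healthy brain, 3 in untreated tumor and 4 at 200 µg, kept to within 1.5 times under all alternatives but 2: with no filter, 5 were called in untreated tumor (Angpt1 and Aplnr added, where 47.4% of 22835 genes were called), and with a plain sum of FPKM, 1 was called at 200 µg (Plvap). With that plain sum, neither Angpt2 nor Tek was called in untreated tumor (limma adjusted p of 0.280 and 0.0926). Median-of-ratios scaling moved the median change of all genes in that comparison from 0.12 to -0.07, and Pdgfb was then called lower (-0.81, limma adjusted p = 0.0356). For dose, no alternative called a member on the FPKM scale. Relative to endothelial genes, the trend gave 1 call with no filter (Tek), and 0 to 1 when a library was left out.

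The slope of the Angpt2 to Angpt1 ratio lost its call when libraries were regrouped by agent tag (-0.50), without the 4 libraries of disagreeing tags (-0.54), with the batch term (-0.50), with both extreme libraries left out (-0.39) and, with the same slope of -0.61, under the replicate block; without each replicate in turn it ranged from -0.79 to -0.51. It was steeper with the plain sum (-1.02, adjusted exact p = 0.00372) and with a pseudocount of 0.1 (-1.55, adjusted exact p = 0.00625). Among pathway genes, Pik3r1 changed sign under the plain sum, to -0.0407 over dose and to -0.157 at 200 µg against 50 µg.

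Replicate numbers did not pair the libraries: same-numbered libraries had correlations of -0.08 to 0.10, 0 of 18 pairs were over 0.1, and 3 of 12 libraries correlated best with their own number. With the replicate block, 3 members were called in untreated tumor, 4 at 200 µg against brain and 0 for dose. Without the block, 61.1% and 61.8% of all genes were called in the 2 comparisons with brain. Groups of 3 limit precision, and low genes such as Tek and Angpt1 are near what these depths could assemble.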

Other observations

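Markers of other cells differed between the groups in which the members were compared. The summed level of 8 microglia and macrophage genes was 124 to 247 FPKM in untreated tumor, 115 to 206 at 50 µg, 46.6 to 66.4 at 100 µg and 46.7 to 59.3 at 200 µg. Of these 8 genes, 1 was called lower at 200 µg against untreated tumor, Tmem119 (log2 change -3.91, limma adjusted p = 0.0100), which held 51.2, 91.0 and 157 FPKM in untreated tumor and 3.95, 4.33 and 7.42 at 200 µg. Without Tmem119, singled out after its values were seen, the sums overlapped: 48.5 to 90.0 FPKM in untreated tumor and 39.2 to 55.4 at 200 µg. Of the oligodendrocyte genes, Cldn11 (-2.09, limma adjusted p = 0.0395) and Mag (-0.83, limma adjusted p = 0.0491) were called lower at 200 µg. The choroid plexus gene Ttr was also called lower (-4.45, limma adjusted p = 0.0359), with 49.6, 44.2 and 3.54 FPKM in untreated tumor and listed at 0 in all 3 libraries at 200 µg. The 12 hypoxia genes, which include Vegfa, Car9 and Slc2a1, summed to 791 to 1141 FPKM in untreated tumor and 780 to 888 at 200 µg, and none of the 11 tested was called. Angpt1 was listed at 0 in all untreated libraries. The 9 genes of pericytes and mural cells, its usual makers, summed to 35.6 to 58.3 FPKM there. At 200 µg they summed to 35.1 to 70.5, and none was called against untreated tumor. Against brain, 2 of the 8 tested were called higher in untreated tumor and 1 lower, where 32.8% and 28.4% of all genes were. Cspg4, 12.9 to 15.6 FPKM of the untreated sums, was higher (2.47), and Rgs5 was lower (-1.34, limma adjusted p = 0.0169). Myh11 was at 0 to 0.12 FPKM in untreated tumor. In 50 µg replicate 3, 4 of the 9 were at 0, while Esm1 and Angpt2 were at their highest treated levels there. That library had 45.3% of genes assembled in pieces, against 24.5% to 33.7% in the other tumor libraries. Its zeros and high levels are therefore uncertain. The part of these cell types in the members' results was not tested.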
